A study of Mus musculus with 8 samples.

Results

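The mitochondrial carriers of the SLC25 family are small membrane proteins that move metabolites across the inner membrane of the mitochondrion. They exchange ADP for ATP, bring in phosphate, and pass aspartate, glutamate, malate, citrate, carnitine esters, cofactors and iron between the cytosol and the matrix. The heart makes most of its ATP in mitochondria and is known for high levels of the adenine nucleotide carriers. Their transcripts were examined in hearts of C57BL/6J mouse fetuses with and without *Dio3*, the gene of the type 3 deiodinase, which inactivates thyroid hormones. Members were all entries of the deposited table whose symbol was Slc25a followed by a number, which gave 44 genes in 90 transcript entries, of 26590 gene symbols in 51414 entries. Each gene was represented by its entry with the highest average of the genotype means, and 26 of the 44 had several entries.

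Total RNA was sequenced after removal of ribosomal RNA in 4 *Dio3+/+* and 4 *Dio3-/-* hearts, each from an individual animal. In *Dio3-/-* fetuses *Dio3* is inactive in the whole animal, so the heart is not the only tissue affected. The sample titles give E13.5 for all 8 hearts, but the age field gives E18.5 for 2 of the 4 *Dio3-/-* hearts, and the study's Methods give an age 1 day later than the titles. The series describes the fetuses as male, yet *Xist*, which the inactive X chromosome of females makes, averaged 35.64 RPKM (*Dio3+/+*) and 39.97 RPKM (*Dio3-/-*). For 4 Y-linked genes the relative spread within a genotype lay between 1.03 and 1.46. RPKM is reads scaled to transcript length and to the mapped reads of the sample, a level that can be compared between genes of different length. It is relative to all mapped reads, so a change in very abundant transcripts also moves the values of other genes. The deposited values are genotype means with a coefficient of variation (CV, the SD over the mean), so single hearts, and any result without the 2 hearts in doubt, cannot be shown. Heart markers were present at high levels, with a summed level of 13950 RPKM (*Dio3+/+*) and 16480 RPKM (*Dio3-/-*) over 10 cardiomyocyte genes. *Dio3* itself was near 0, at 0.35 RPKM and 0.13 RPKM, so its transcript did not check the genotype labels. *Klf9*, a known target of thyroid hormone, averaged 1.86 RPKM (*Dio3+/+*) and 8.48 RPKM (*Dio3-/-*) (adjusted *P* = 5.74e-06 by limma with Benjamini-Hochberg adjustment).

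A carrier transcript can be measured apart from its relatives only where their sequences differ. *Slc25a4* (ANT1, the adenine nucleotide carrier of heart and skeletal muscle) and *Slc25a5* (ANT2, the form of growing tissues) are close relatives, and both coding sequences are 897 bases long. They were 77.5% identical base by base, and their longest shared run of bases was 20, at coding bases 322 to 341 of *Slc25a4*. Coding bases 241 to 420 of each transcript, from the GENCODE M21 transcript sequences, are shown with the 39 of 180 bases that differ in capitals, since these differences assign a read of 75 bases to one gene or the other.
Slc25a4: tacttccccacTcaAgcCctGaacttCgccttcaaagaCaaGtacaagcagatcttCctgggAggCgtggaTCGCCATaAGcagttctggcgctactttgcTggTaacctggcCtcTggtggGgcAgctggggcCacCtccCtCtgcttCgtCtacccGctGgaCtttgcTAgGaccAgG
Slc25a5: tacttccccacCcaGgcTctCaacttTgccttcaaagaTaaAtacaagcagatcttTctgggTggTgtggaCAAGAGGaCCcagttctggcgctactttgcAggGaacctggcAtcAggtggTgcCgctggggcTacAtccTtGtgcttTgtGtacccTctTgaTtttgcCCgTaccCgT
The shared run cagttctggcgctactttgc lies inside this stretch and is far shorter than the 75 bases of a read. None of the 44 members shared any 75-base window with another member, and 29 shared none with the transcript of any other gene. *Slc25a4* was among those 29, as was *Slc25a13*. *Slc25a5* shared 27.9% of its windows with 6 pseudogenes, copies of the gene that lie elsewhere in the genome. The authors kept reads that map to a single place, so the RPKM of *Slc25a5* is a level over its distinct parts. How far this lowers its value beside that of *Slc25a4* was not tested. Windows shared with pseudogenes were fewer in the other 4 members that had any, at 9.76% for *Slc25a36*, 8.38% for *Slc25a40*, 4.0% for *Slc25a35* and 2.34% for *Slc25a3*.

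Levels of the 44 members covered a wide range, from *Slc25a4* down to members near 0. The adenine nucleotide carriers *Slc25a4* and *Slc25a5* and the phosphate carrier *Slc25a3*, which together supply the ATP synthase with ADP and phosphate and export the ATP, were the 3 most abundant. Their summed level was 944.07 RPKM (*Dio3+/+*) and 1199.1 RPKM (*Dio3-/-*), of 1499.9 RPKM and 1702.0 RPKM for all 44 members. These 3 genes thus made up 62.9% of the family's level in *Dio3+/+* and 70.5% in *Dio3-/-* hearts. *Slc25a39*, needed for glutathione import, and *Slc25a37* (mitoferrin 1, the iron importer of developing red cells) were next in the order and were the only other members above 100 RPKM in a genotype. The median member was at 5.13 RPKM (*Dio3+/+*) and 5.77 RPKM (*Dio3-/-*). In bulk tissue, fewer cells of a type and less RNA per cell cannot be told apart.

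**Figure D1:**
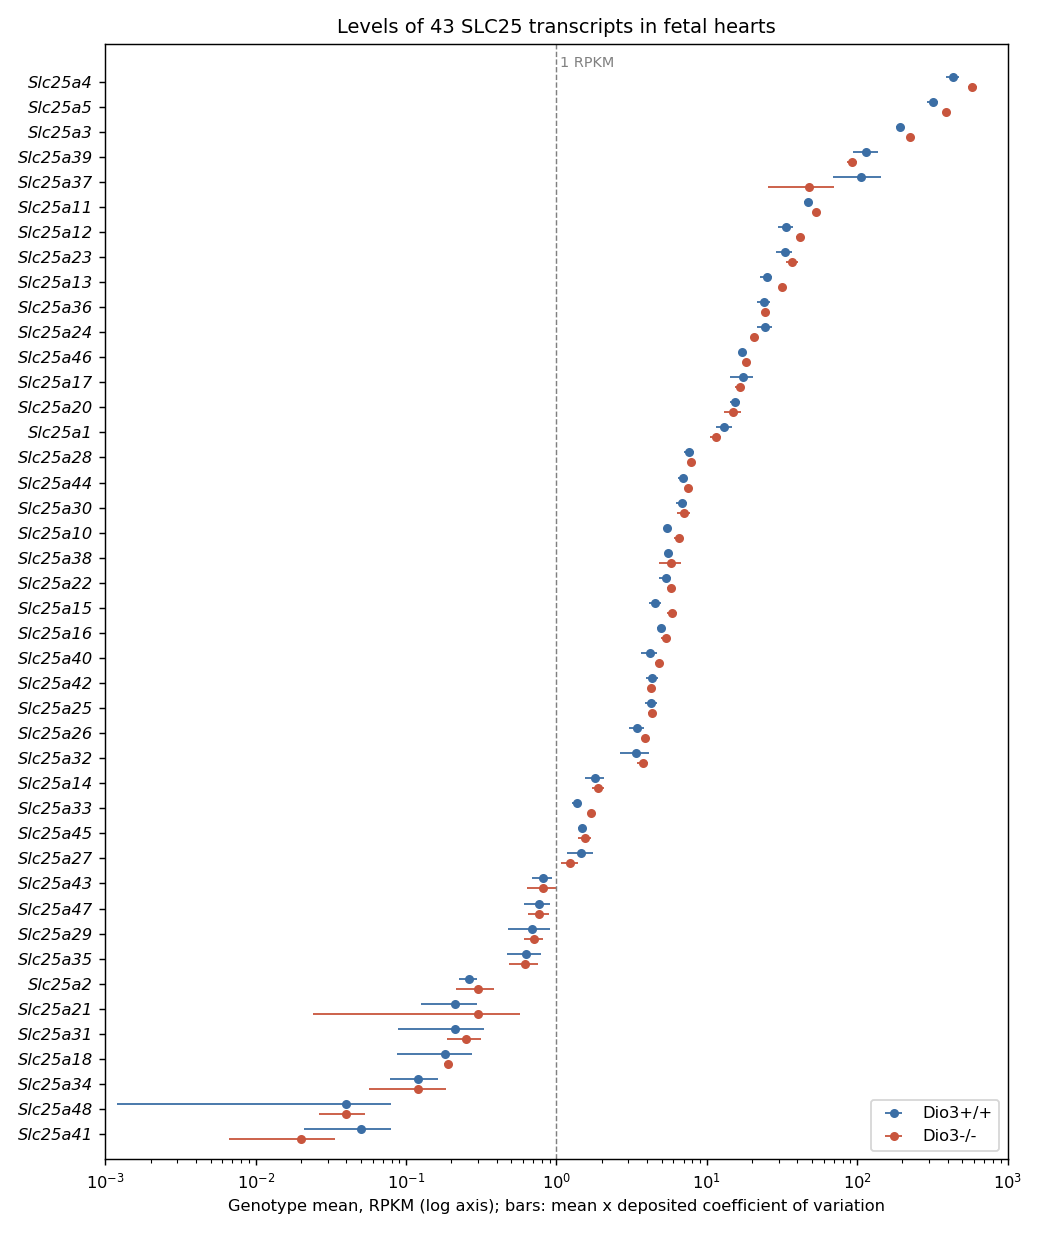
Deposited mean of 43 of the 44 SLC25 transcripts in RPKM on a log axis, in *Dio3+/+* hearts (blue) and *Dio3-/-* hearts (red), ordered by the average of both genotypes, with bars of the mean times the deposited coefficient of variation. *Slc25a4* is highest at 432.31 and 582.90 RPKM, and 11 members lie at or under 0.81 RPKM in both genotypes.

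The question of the series is what the loss of *Dio3* changes in the fetal heart, and among the carriers 2 genes rose. *Slc25a4* and *Slc25a13* (citrin, an exchanger of aspartate and glutamate) were 1.35-fold and 1.26-fold higher in *Dio3-/-* than in *Dio3+/+* hearts, and none of the members was lower with an adjusted *P* under 0.05. The test covered the 33 members above 1 RPKM in at least 1 genotype, so 2 of 33 (6.06%) passed, beside 2.29% of all 14657 genes tested. In all genes 1.91% were higher and 0.382% lower. At an unadjusted *P* under 0.05, 10 members were higher and 3 lower, which is 39.4% of those tested, beside 19.7% of all genes. The mean was higher in *Dio3-/-* hearts for 25 of the 33 members (75.8%) and for 63.3% of all tested genes. The median log2 fold change was 0.10 in the members and 0.04 in all tested genes. Counted from the median ratio of all tested entries, 23 of 33 members (69.7%) lay above it, beside 50.6% of all genes. In the study's own list of changed genes *Slc25a4* is given as higher and *Slc25a13* is absent. That list comes from the same hearts and is not an independent test. Both calls made here depended on the settings. That of *Slc25a4* was lost without the filter on low values, by Welch's test and after centring on the median ratio, and that of *Slc25a13* also without the mean-variance trend and with the coefficients of variation raised by 0.005.

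**Figure D2:**
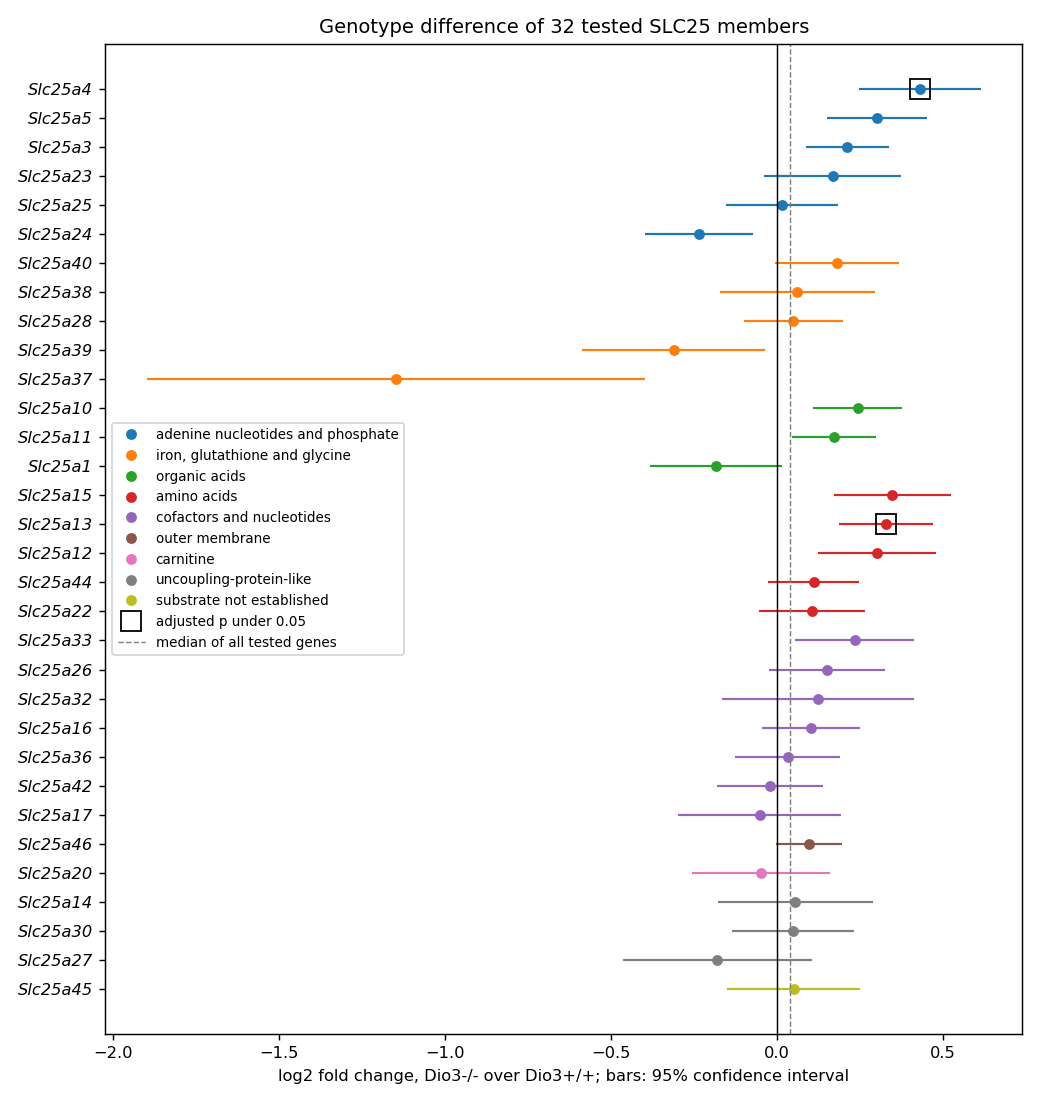
Log2 fold change of *Dio3-/-* over *Dio3+/+* hearts for 32 of the 33 tested SLC25 members, coloured by what they carry, with 95% confidence intervals from limma. The 2 boxed members, *Slc25a4* at 0.43 and *Slc25a13* at 0.33, had an adjusted *P* under 0.05, and *Slc25a37* lies farthest to the left with the widest interval, from -1.90 to -0.40.

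Among the carriers of adenine nucleotides and phosphate, 6 members were tested. Of these, 5 had a higher mean in *Dio3-/-* hearts (83.3%, beside 63.3% of all tested genes) and 1 passed the test (16.7%, beside 2.29%). *Slc25a4* averaged 432.31 RPKM (CV 0.10) in *Dio3+/+* hearts, against 582.90 RPKM (CV 0.07) in *Dio3-/-* hearts. It rose by a log2 fold change of 0.43 ± 0.08 (SE, 95% confidence interval 0.25 to 0.61, adjusted *P* = 0.033 by limma). The difference of the means is larger than either genotype's spread. A further *Slc25a4* entry averaged 247.33 RPKM and 332.67 RPKM, and its log2 fold change was also 0.43 (limma, adjusted *P* = 0.0474). That entry was measured in the same hearts and is not an independent test.

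*Slc25a5* averaged 318.02 RPKM (CV 0.09) and 391.79 RPKM (0.03), and its log2 fold change of 0.30 ± 0.07 did not pass (SE, adjusted *P* = 0.0565 by limma). *Slc25a5* passed where only genes with a mean above 5 RPKM were tested (adjusted *P* = 0.0449). *Slc25a5* is X-linked, and its spread within a genotype was far under that of *Xist* (0.99 and 0.55). The part of fetal sex in the *Slc25a5* values was not tested. *Slc25a4* made up 57.6% of the sum of both carriers in *Dio3+/+* and 59.8% in *Dio3-/-* hearts. Whether the changes of both carriers differ was not tested, since the deposited values are genotype means and not those of single hearts. *Slc25a31* (ANT4), the form of germ cells, was at 0.21 RPKM and 0.25 RPKM and was not tested.

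*Slc25a3*, the phosphate carrier, averaged 193.74 RPKM (CV 0.06) and 224.40 RPKM (0.04), with a log2 fold change of 0.21 ± 0.06 (SE) and an adjusted *P* of 0.0798 by limma. The calcium-regulated carriers of ATP-Mg and phosphate had differing values. *Slc25a24* averaged 24.31 RPKM (0.11) and 20.58 RPKM (0.02), with a log2 fold change of -0.24 ± 0.07 (SE) and an adjusted *P* of 0.121. *Slc25a23* was at 32.88 RPKM and 37.0 RPKM, *Slc25a25* at 4.28 RPKM and 4.33 RPKM, and *Slc25a41* was near 0 at 0.05 RPKM and 0.02 RPKM. None of these carriers passed the test.

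**Figure D3:**
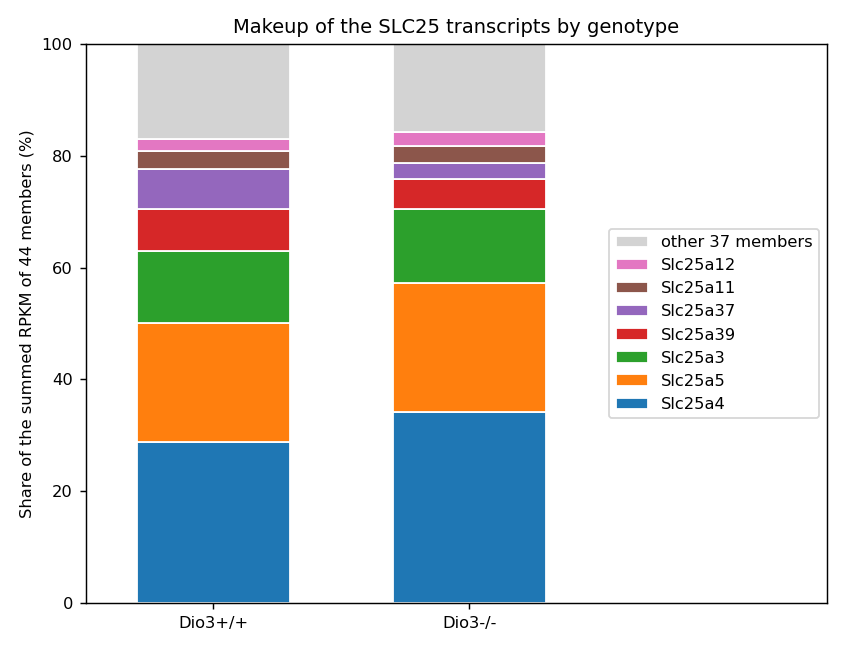
Share of each of the 7 most abundant members, and of the other 37 together, in the summed RPKM of 44 SLC25 members in *Dio3+/+* and *Dio3-/-* hearts, in percent. *Slc25a4* has 28.8% in *Dio3+/+* and 34.2% in *Dio3-/-* hearts, and *Slc25a37* has 7.11% and 2.81%.

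All 5 tested carriers of amino acids had a higher mean in *Dio3-/-* hearts, as did 63.3% of all tested genes. Their median log2 fold change was 0.30, beside 0.04 in all tested genes, and 1 passed the test (20%, beside 2.29%). *Slc25a13* averaged 24.95 RPKM (CV 0.09) in *Dio3+/+* hearts, against 31.48 RPKM (CV 0.02) in *Dio3-/-* hearts. It rose by a log2 fold change of 0.33 ± 0.06 (SE, 95% confidence interval 0.19 to 0.47, adjusted *P* = 0.0348 by limma). The *Dio3-/-* hearts differed little among themselves, and the difference of the means exceeds the spread of either genotype. A further entry of the gene had nearly the same means, at 24.84 RPKM and 31.35 RPKM (adjusted *P* = 0.0347 by limma). It was measured in the same hearts and is not an independent test.

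*Slc25a12* (aralar) carries the same substrates and is known as the form of muscle and brain, while citrin is the form of liver. In these hearts *Slc25a12* was above *Slc25a13* in both genotypes and averaged 33.63 RPKM (0.11) and 41.55 RPKM (0.06). Its log2 fold change of 0.30 ± 0.08 (SE) had an adjusted *P* of 0.0793 by limma. The longest run of bases shared by the coding sequences of *Slc25a12* and *Slc25a13* was 21, so the pair was measured apart.

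*Slc25a15*, the ornithine carrier of the urea cycle, was lower in level at 4.53 RPKM (0.09) and 5.90 RPKM (0.08), with a log2 fold change of 0.35 ± 0.08 (SE) and an adjusted *P* of 0.0581 by limma. It passed where only genes with a mean above 5 RPKM were tested (adjusted *P* = 0.0486). The carrier of branched-chain amino acids, *Slc25a44*, was at 6.94 RPKM and 7.53 RPKM, and the glutamate carrier *Slc25a22* at 5.32 RPKM and 5.76 RPKM. *Slc25a2*, *Slc25a18* and *Slc25a29* were under 1 RPKM in both genotypes and were not tested.

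Citrin and *Slc25a15* are known from the liver, and hepatocyte transcripts also had higher means in *Dio3-/-* hearts. All 10 hepatocyte markers were higher there, with a summed level of 23.18 RPKM (*Dio3+/+*) and 121.9 RPKM (*Dio3-/-*). None passed by limma, although all 10 had an unadjusted *P* under 0.05, beside 19.7% of all tested genes. These *P* values are rough, since the SD on the log scale was derived from coefficients of variation that were large here. The coefficients of variation of these markers in *Dio3-/-* hearts lay between 0.68 and 1.26. That of *Slc25a13* was 0.02 and that of *Slc25a15* was 0.08. *Slc25a47*, which is known as a liver transcript, was at 0.76 RPKM and 0.77 RPKM. The part of liver RNA in the carrier values was not tested.

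The aspartate-glutamate carriers, the oxoglutarate-malate carrier *Slc25a11* and 4 enzymes form the malate-aspartate shuttle, which brings the electrons of cytosolic NADH into mitochondria. *Slc25a11* was at 47.34 RPKM (0.06) and 53.42 RPKM (0.05), a ratio of 1.13, and did not pass the test. Of a list of 7 shuttle enzymes, with those of the glycerophosphate shuttle, 6 were tested. All 6 had a higher mean in *Dio3-/-* hearts, as did 63.3% of all tested genes, and 2 passed (33.3%, beside 2.29%). *Got1*, the cytosolic aspartate aminotransferase, rose from 45.47 RPKM to 62.91 RPKM, that is by a log2 fold change of 0.46 ± 0.08 (SE, adjusted *P* = 0.0217 by limma). *Gpd2*, the mitochondrial glycerophosphate dehydrogenase, which the study names as a target of thyroid hormone, rose from 7.36 RPKM to 9.54 RPKM (log2 fold change 0.35, adjusted *P* = 0.00781). The median log2 fold change over the 6 enzymes was 0.33, beside 0.04 in all tested genes. *Got2* was at 146.88 RPKM and 183.02 RPKM (adjusted *P* = 0.0581) and *Mdh1* at 197.61 RPKM and 250.93 RPKM (adjusted *P* = 0.0632). *Mdh2* was at 239.46 RPKM and 287.77 RPKM (adjusted *P* = 0.119), and these 3 did not pass.

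**Figure D4:**
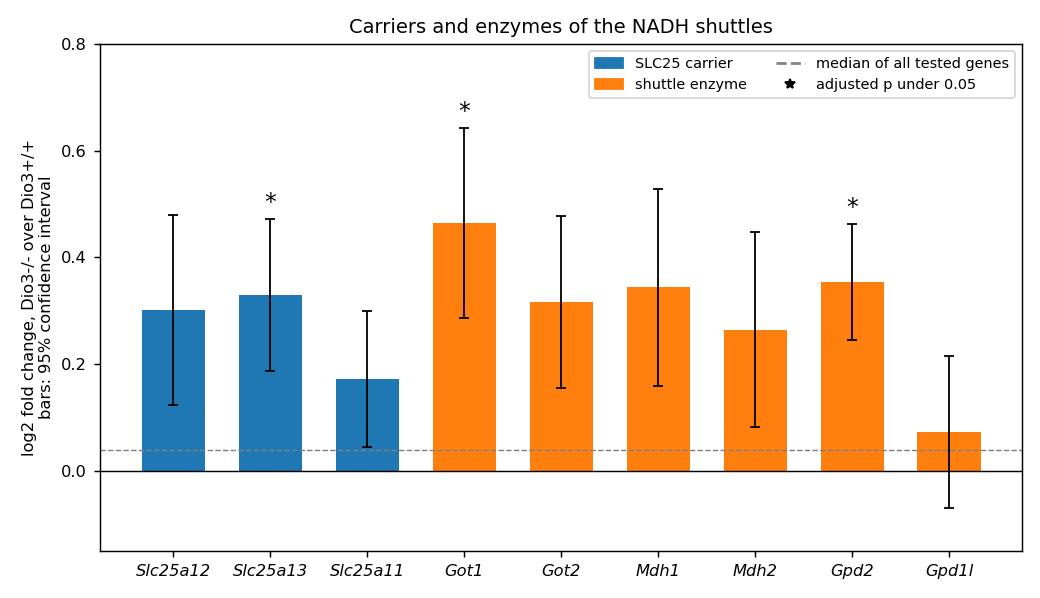
Log2 fold change of *Dio3-/-* over *Dio3+/+* hearts for 3 SLC25 carriers (blue) and 6 enzymes (orange) of the NADH shuttles, with 95% confidence intervals from limma and the median of all tested genes (0.04) as a dashed line. All 9 bars are above 0, and *Slc25a13*, *Got1* and *Gpd2*, marked by stars, had an adjusted *P* under 0.05.

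The other carriers of organic acids did not pass the test. *Slc25a10*, the dicarboxylate carrier, was at 5.40 RPKM (0.04) and 6.48 RPKM (0.06), a ratio of 1.2. *Slc25a1*, which exports citrate for fatty acid synthesis, was at 13.06 RPKM (0.12) and 11.43 RPKM (0.08), with a log2 fold change of -0.18 ± 0.09 (SE, adjusted *P* = 0.305 by limma). *Slc25a20*, which brings acylcarnitines in for fatty acid oxidation, was at 15.50 RPKM (0.08) and 14.98 RPKM (0.13). The 95% confidence interval of its log2 fold change ran from -0.26 to 0.16, so differences inside those limits are not excluded. The oxoadipate carrier *Slc25a21* was at 0.21 RPKM and 0.30 RPKM and was not tested.

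*Slc25a37* had the largest log2 fold change in size of the tested members, with a lower mean in *Dio3-/-* hearts, and did not pass the test. It averaged 106.67 RPKM (CV 0.35) in *Dio3+/+* hearts, against 47.88 RPKM (CV 0.47) in *Dio3-/-* hearts. The log2 fold change was -1.15 ± 0.33 (SE, 95% confidence interval -1.90 to -0.40, adjusted *P* = 0.103 by limma). The spread between hearts of 1 genotype was the widest of the 33 tested members and was the only one above 0.3. A further entry was at 95.68 RPKM and 43.44 RPKM.

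Red cell transcripts also had lower means. Of 10 red cell markers 9 had a lower mean in *Dio3-/-* hearts, while 63.3% of all tested genes had a higher mean. The 10 markers had a median log2 fold change of -1.43. Their summed level was 97870 RPKM (*Dio3+/+*) and 34010 RPKM (*Dio3-/-*). The embryonic globin *Hbb-bh1* was the 1 marker that passed the test, as lower (10%, beside 0.382% of all tested genes, adjusted *P* = 0.0468 by limma). Their coefficients of variation lay between 0.27 and 0.40 in *Dio3+/+* and between 0.46 and 0.64 in *Dio3-/-* hearts, and both values of *Slc25a37* fall in those ranges. *Alas2*, the heme synthesis enzyme of red cells that uses mitochondrial iron and glycine, was at 244.34 RPKM and 93.08 RPKM (adjusted *P* = 0.0759). *Slc25a28* (mitoferrin 2), the iron importer of other cells, was at 7.62 RPKM (0.08) and 7.90 RPKM (0.05), a ratio of 1.04. The part of red cell RNA in the *Slc25a37* values was not tested. How far the lower red cell level moved the RPKM of other genes was not tested either.

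**Figure D5:**
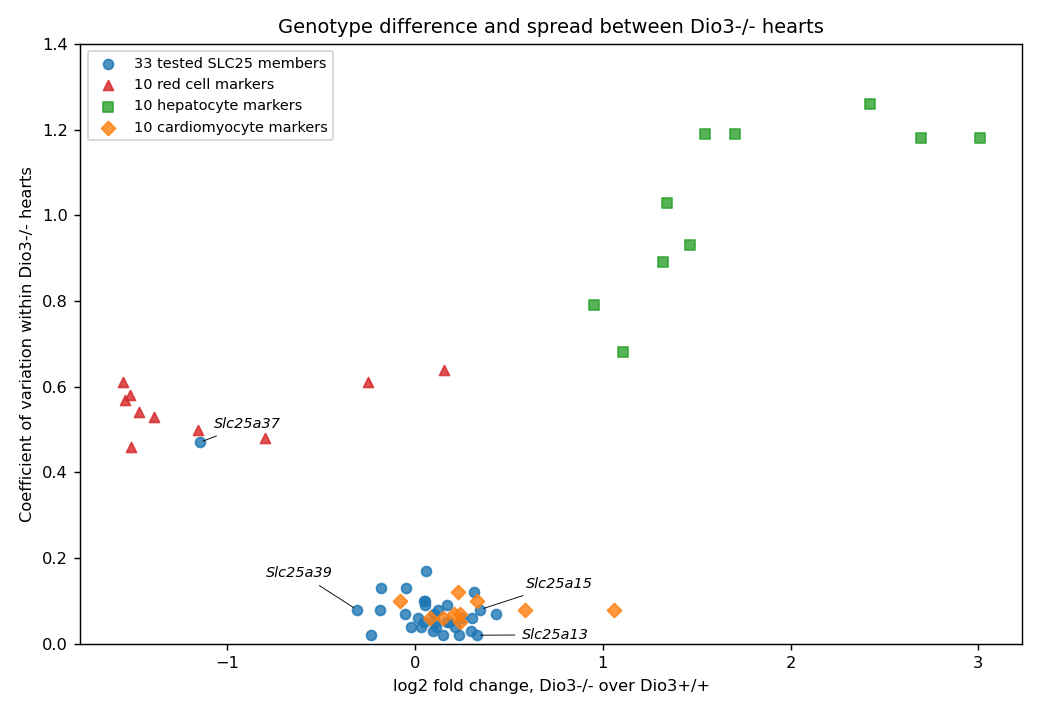
Log2 fold change of *Dio3-/-* over *Dio3+/+* hearts on the x axis against the coefficient of variation within *Dio3-/-* hearts on the y axis, for 33 tested SLC25 members (circles), 10 red cell markers (triangles), 10 hepatocyte markers (squares) and 10 cardiomyocyte markers (diamonds). *Slc25a37* is at -1.15 and 0.47, and *Slc25a13* is at 0.33 and 0.02.

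*Slc25a39* averaged 114.87 RPKM (0.19) and 92.50 RPKM (0.08), with a log2 fold change of -0.31 ± 0.12 (SE) and an adjusted *P* of 0.21 by limma. Its further entry was at 10.42 RPKM and 10.61 RPKM, and *Slc25a39* was the only one of 20 members with several tested entries whose entries differed in direction. *Slc25a40*, its relative, also linked to glutathione import, was at 4.17 RPKM and 4.79 RPKM. *Slc25a38*, the glycine carrier needed for heme synthesis, was at 5.52 RPKM (0.05) and 5.78 RPKM (0.17). These genes did not pass the test. *Slc25a37* and *Slc25a39* together made up 14.8% of the family's level in *Dio3+/+* and 8.25% in *Dio3-/-* hearts. Without them and the 3 most abundant members, the summed level of the other 39 was 334.3 RPKM (*Dio3+/+*) and 362.6 RPKM (*Dio3-/-*).

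Of 8 tested carriers of cofactors and nucleotides, 6 had a higher mean in *Dio3-/-* hearts (75%, beside 63.3% of all tested genes). None passed by limma, while 2 had an unadjusted *P* under 0.05 (25%, beside 19.7% of all tested genes). The pyrimidine nucleotide carrier *Slc25a33* was at 1.37 RPKM (0.07) and 1.70 RPKM (0.02), and its relative *Slc25a36* at 23.99 RPKM (0.10) and 24.53 RPKM (0.04). A further 5, among them the coenzyme A carriers *Slc25a16* and *Slc25a42* and the folate carrier *Slc25a32*, had ratios of the means between 0.963 for the peroxisomal carrier *Slc25a17* and 1.13 for the S-adenosylmethionine carrier *Slc25a26*.

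The carriers that resemble uncoupling proteins were low. *Slc25a30* was at 6.81 RPKM and 7.06 RPKM, the X-linked *Slc25a14* at 1.81 RPKM and 1.90 RPKM, and *Slc25a27*, known from brain, at 1.46 RPKM (0.20) and 1.23 RPKM (0.13). The log2 fold change of *Slc25a27* was -0.18 ± 0.13 (SE, adjusted *P* = 0.494 by limma). *Slc25a46*, which sits in the outer membrane and acts in mitochondrial dynamics, had a small spread, at 17.0 RPKM (0.03) and 18.21 RPKM (0.03). *Slc25a45* was at 1.47 RPKM and 1.54 RPKM. Of members under 1 RPKM, *Slc25a43*, *Slc25a35*, *Slc25a34* and *Slc25a48* were between 0.04 RPKM and 0.81 RPKM in both genotypes.

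Some proteins of the family have other symbols in the table. *Ucp2*, an uncoupling protein, was at 40.06 RPKM (0.14) and 32.98 RPKM (0.06) (log2 fold change -0.28, adjusted *P* = 0.146 by limma). *Mcart1*, which is *Slc25a51*, the NAD carrier, was at 33.04 RPKM (0.02) and 31.98 RPKM (0.04). *Mtch2*, of the outer membrane, was at 40.30 RPKM and 45.84 RPKM (log2 fold change 0.18, adjusted *P* = 0.0615 by limma). The study's own list of changed genes holds *Mtch2* as higher, with a larger log2 fold change than this entry. Of the 5 tested family genes with other symbols, none passed by limma. An unadjusted *P* under 0.05 was found for 2 of them (40%, beside 19.7% of all tested genes). *Ucp1*, the heat-producing form of brown fat, was listed at 0.01 RPKM in both genotypes.

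Carrier proteins are made in the cytosol, pass the outer membrane through the TOM pore, cross the space between the membranes with small TIM chaperones and are placed in the inner membrane by TIM22. All 14 tested genes of this import route had a higher mean in *Dio3-/-* hearts, as did 63.3% of all tested genes. Their median log2 fold change was 0.16, beside 0.04 in all tested genes, and 1 passed (7.14%, beside 2.29%). *Timm9*, a small chaperone, rose from 13.87 RPKM (0.06) to 16.90 RPKM (0.02), that is by a log2 fold change of 0.28 ± 0.05 (SE, adjusted *P* = 0.033 by limma). *Tomm40*, the pore, was at 40.14 RPKM and 50.60 RPKM (adjusted *P* = 0.0551). The 3 porins of the outer membrane, through which metabolites reach the carriers, had higher means without passing, and *Vdac1* was the highest at 277.64 RPKM and 321.51 RPKM (adjusted *P* = 0.139).

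Among 17 tested genes of inner membrane transport outside the family, 10 had a higher mean (58.8%, beside 63.3% of all tested genes) and 2 passed, both higher (11.8%, beside 2.29% of all tested genes in either direction). *Brp44l*, which is *Mpc1*, a subunit of the pyruvate carrier, rose from 42.04 RPKM (0.05) to 58.73 RPKM (0.05), that is by a log2 fold change of 0.48 ± 0.05 (SE, adjusted *P* = 0.00337 by limma). *Brp44*, the partner subunit *Mpc2*, was at 29.49 RPKM and 36.54 RPKM (adjusted *P* = 0.0622). *Letm1*, a cation exchanger, rose from 10.60 RPKM to 13.99 RPKM (log2 fold change 0.38, adjusted *P* = 0.00405). Of 13 regulators of mitochondrial genes 12 had a higher mean (92.3%, beside 63.3% of all tested genes). Their median log2 fold change was 0.07, beside 0.04 in all tested genes. At an unadjusted *P* under 0.05 by limma there was 1 (7.69%, beside 19.7%), and the same gene was the 1 that passed. It was the coactivator *Ppargc1b*, which rose from 8.46 RPKM to 12.17 RPKM (log2 fold change 0.50, adjusted *P* = 0.0301 by limma).

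The cardiomyocyte markers were mostly higher, as were the 3 most abundant carriers. Of 10 markers 9 had a higher mean in *Dio3-/-* hearts (90%, beside 63.3% of all tested genes). *Myh6* and *Ryr2* passed, which is 20% of the markers, beside 2.29% of all tested genes. The median log2 fold change of the 10 markers was 0.23. That median is under the log2 fold changes of *Slc25a4* and *Slc25a13* and above that of *Slc25a3*. The markers ran from -0.08 for *Myh7* to 1.06 for *Myh6*. The study reports *Myh6* itself as raised, so the median is not a measure of cardiomyocyte content. The part of the cardiomyocyte content in the carrier values was not tested. Skeletal muscle, the other tissue rich in *Slc25a4*, left few transcripts, with a summed level of 35.2 RPKM (*Dio3+/+*) and 7.5 RPKM (*Dio3-/-*) over 7 markers. None of the 5 tested passed by limma, and 3 were lower at an unadjusted *P* under 0.05 (60%, beside 19.7% of all tested genes in either direction). These *P* values are rough, since the coefficients of variation of the 3 genes were large.

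The promoters of the 2 genes that rose are given because thyroid hormone receptors bind DNA at a known half-site, for which both were searched. They are the 250 bases before the RefSeq start on the strand of the gene in GRCm38.p6, chr8:46211063-46211312 (minus strand) for *Slc25a4* and chr6:6217174-6217423 (minus strand) for *Slc25a13*, and capitals mark CCAAT, a common promoter element that was picked after the sequences were seen.
Slc25a4: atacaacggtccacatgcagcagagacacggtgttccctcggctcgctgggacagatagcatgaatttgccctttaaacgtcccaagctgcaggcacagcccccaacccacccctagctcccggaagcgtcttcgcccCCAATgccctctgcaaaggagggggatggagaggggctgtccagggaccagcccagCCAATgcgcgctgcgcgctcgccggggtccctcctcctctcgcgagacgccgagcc
Slc25a13: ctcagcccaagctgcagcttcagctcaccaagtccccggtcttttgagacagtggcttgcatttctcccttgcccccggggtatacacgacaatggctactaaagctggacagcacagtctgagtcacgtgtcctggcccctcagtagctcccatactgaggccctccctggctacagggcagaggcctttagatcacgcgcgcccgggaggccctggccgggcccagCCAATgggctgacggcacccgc
The half-site AGGTCA was searched on both strands and was in neither promoter. It was in 4 of 43 promoters of the 34 members matched in RefSeq (9.3%), those of *Slc25a34*, *Slc25a39*, *Slc25a45* and *Slc25a47*, and in 14.0% of all 32851 promoters of that length. A pair of half-sites in 1 direction with 4 bases between them was in none of the member promoters and in 0.0152% of all. CCAAT, searched in the same way, was in 20 of the 43 member promoters (46.5%) and in 33.8% of all. These are exact matches of letters in 250 bases. They say nothing of half-sites with other letters, of pairs with other spacings or directions, or of sites farther away.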

How the data were processed

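Total RNA of 8 fetal hearts, 4 per genotype, was sequenced with 75-base single-end reads. The authors aligned the reads with Novoalign 2.08 (submitters' processing notes), kept uniquely mapping reads and scaled samples to each other. The genome build is not given in the sources used here. The deposited table holds, for each transcript entry, the mean per genotype, which the authors give without a unit and which was read as RPKM, and the coefficient of variation, the ratio of the SD to the mean, to 2 decimals. Its columns of the authors' own comparison (a fold change and a q value) were not used. The study's Methods describe the depth of the libraries as a range and an average, but the table gives no read total per heart and no count per transcript, so no counting interval was computed.

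Samples were grouped by the genotype field. The SD on the log2(mean + 0.5) scale was derived from the mean and coefficient of variation, and genotypes were compared by limma 3.58.1 in R 4.3.3 (empirical Bayes, mean-variance trend, two-sided), with Benjamini-Hochberg adjustment over 32703 entries above 1 RPKM in at least 1 genotype. On that scale the fold change of a low gene is understated. The derived SD is an approximation and is rough where the coefficient of variation is large. Ratios of means have no pseudocount. The code was tested on simulated data. SE and adjusted *P* are given for members with an adjusted *P* under 0.05, the 5 most abundant, and the 5 members at each end of the log2 fold changes. 1 member that meets this rule is not reported here by itself and is left out of the plots of single members, but it is part of the counts, sums and medians. Other genes named come from lists. Members and lists were chosen with earlier results of these data known. *P* values set the difference between genotypes against the spread between hearts of the same genotype.

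Sequences were taken from GENCODE M21 transcripts and RefSeq promoters (GRCm38.p6). No interval covers more than the spread between hearts.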

Additional observations from a re-analysis of the deposited data

How the results depend on the processing

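The count of members with an adjusted *P* under 0.05 was 2 and remained 2 with pseudocounts of 0.1 and 1, with 1 entry per gene and when any entry of a gene could pass. It was 0 without the filter on low values, 0 by Welch's test and 0 after centring on the median log2 ratio, 1 without the mean-variance trend and 1 with each coefficient of variation raised by its rounding error of 0.005. It was 4 for genes with a mean above 5 RPKM and 4 without entries whose coefficient of variation exceeded 0.5, where *Slc25a5* and *Slc25a15* were added. In these last settings the share of all tested genes that passed also rose, from 2.29% to 3.76% and 3.48%. All of these calls were higher in *Dio3-/-* hearts, and the count of lower members was 0 in each setting. The smallest and largest adjusted *P* over the alternatives were 0.022 and 0.15 for *Slc25a4* and 0.0248 and 0.197 for *Slc25a13*. Of 119 values of 12 members chosen by the naming rule, 107 kept their direction and side of the threshold, 8 lost and 4 gained the call, and 0 reversed. Among all genes the count of 336 was 495 without entries of high coefficient of variation, 382 with a mean above 5 RPKM, 250 without the trend, 197 without the filter, 187 with the raised coefficients of variation, 180 after centring and 27 by Welch's test. The share of calls that were higher was 83.3%, against 71.7% after centring and 100% by Welch's test. Summed over all entries of each gene, *Slc25a4* made up 68.12% in *Dio3+/+* and 70.03% in *Dio3-/-* hearts of the *Slc25a4* and *Slc25a5* total, since *Slc25a4* has 2 entries in that sum and *Slc25a5* has 1. The cause of the changes in calls was not tested. Leaving out single hearts could not be run on genotype means. No paired analysis was possible because the table holds genotype means and no values of single hearts.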
